A study of Mus musculus with 2 samples.

Results

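Among 28245 droplet barcodes from adult mouse testes, 761 (2.69%) combined a high share of mitochondrial transcripts with UMIs of Aym1, Gm35256, 4930578E11Rik or Zfp820. A UMI is a molecular tag that counts 1 captured transcript. A barcode was a member if mitochondrially encoded genes held at least 5% of its UMIs, if the 4 marker genes summed to at least 2 UMIs, and if it fell under 2 caps. The caps were fewer than 3 UMIs of Stra8, which acts at meiotic entry, and fewer than 5 UMIs over Meioc, Hfm1, Tex11, Msh5, Terb1, Meiob, Tex15 and Prdm9, 8 genes of early meiotic prophase. The rule therefore used measured values, and the mitochondrial genes, the 4 markers and the capped genes are described here without being taken as results.

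Whole testes of adult miR-202-/- mice and of adult WT mice were dissociated, debris was sorted away, and 1 droplet library with 3′ chemistry was made per genotype. Both groups carry the strain label C57BL/CJ;ICR, and the sources used here do not give the number of animals in each suspension. The deposited table joins both libraries, and each barcode name ends in suffix 1 or suffix 2. No source used here ties a suffix to a genotype, so no value was assigned to miR-202-/- or WT mice, and the suffixes were not treated as replicates. The members are set beside 3 groups: 2120 marker-negative mitochondria-rich barcodes, 831 marker-positive barcodes of low mitochondrial share, and 2948 prophase-gated barcodes, which had at least 5 UMIs of the 8 prophase genes. Paired values are given for suffix 1 and then suffix 2. The members were 405 of 12935 barcodes under suffix 1 (3.13%, 95% interval 2.84 to 3.45%) and 356 of 15310 under suffix 2 (2.33%, 95% interval 2.09 to 2.58%). All intervals, here and for ratios, cover counting error only, and with 1 library per genotype no test was run.

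In the testis, spermatogonia enter meiosis as primary spermatocytes, which pair their chromosomes and repair programmed DNA breaks during a long prophase. In the pachytene stage of prophase the X and Y chromosomes are transcriptionally silenced in the sex body, a process that depends on the kinase ATR and on damage signalling proteins, while autosomes express a large pachytene program that includes piRNA precursors and the PIWI and Tudor proteins that process and bind piRNAs. The mitochondrial genome encodes subunits of the respiratory chain and of ATP synthase, and the remaining subunits are encoded in the nucleus.

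Of the 4 markers, Aym1 is a protein-coding gene with 1 exon at chr5:113357294-113357821 on the plus strand of GRCm38, and it is named for activating meiotic promoters in yeast. Gm35256 is a long intergenic noncoding RNA of 15 exons at chr8:71026792-71126576 on the plus strand. The noncoding RNA 4930578E11Rik lies at chr18:29396716-29496569 on the minus strand. Zfp820 encodes a zinc finger protein and has 5 exons at chr17:21816885-21845772 on the minus strand. Positions and gene classes are those of the GENCODE M21 annotation. Zinc finger genes have close relatives, among which the counting may have split the reads of Zfp820.

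Gm35256 and 4930578E11Rik were each found in most members, and Aym1 and Zfp820 each in a minority. Aym1 had a UMI in 38.5% and 36.0% of members, Gm35256 in 82.0% and 88.8%, 4930578E11Rik in 77.5% and 83.4%, and Zfp820 in 35.3% and 25.8%. The most frequent combination was Gm35256 with 4930578E11Rik and no other marker, in 262 members (34.4%), followed by these plus Aym1 in 141 (18.5%). All 4 markers occurred together in 63 members (8.28%). The sum of the markers had a median of 6 UMIs and reached 51 under suffix 1 and 34 under suffix 2. The members are called by their rule, and no cell type name is given to them.

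**Figure D1:**
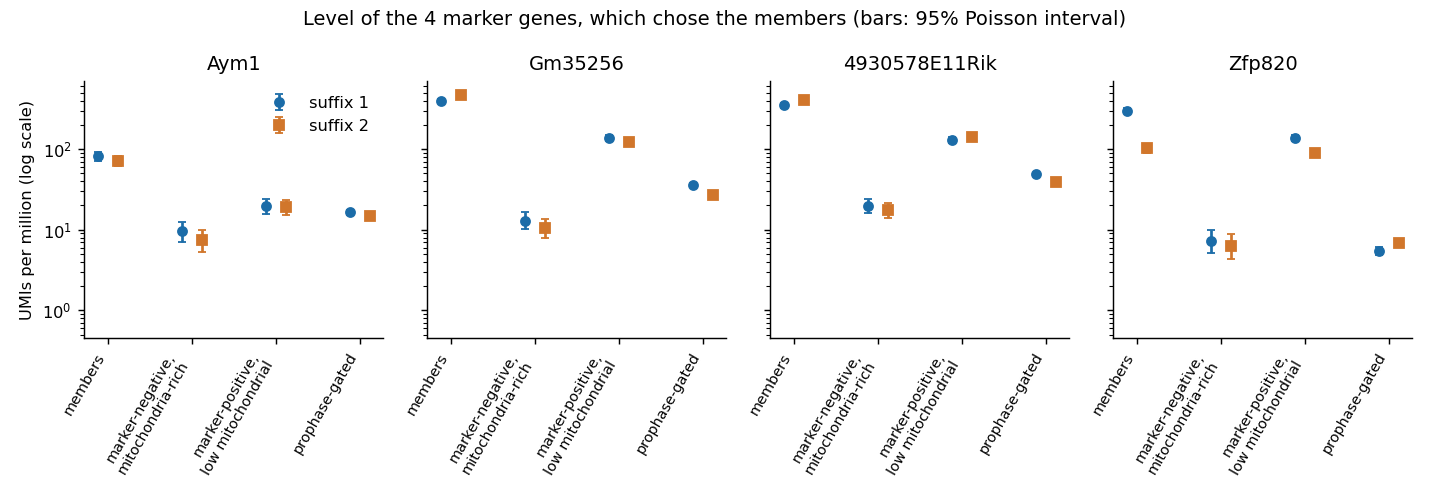
CPM of the 4 marker genes, as UMIs per 1000000 (log scale), in members, marker-negative mitochondria-rich barcodes, marker-positive barcodes of low mitochondrial share and prophase-gated barcodes. Points are suffix 1 (circles) and suffix 2 (squares), and bars are 95% Poisson intervals. These genes chose the members and the low-share barcodes. Within each suffix the members lie highest, and Zfp820 differs most between the suffixes in the members, at 299.5 and 103 CPM, the second of which lies below the 139 CPM of the low-share barcodes under suffix 1.

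Levels are UMIs per 1000000 UMIs of the group (CPM). Gm35256 stood at 397 and 473 CPM in members, against 13.0 and 10.6 CPM in barcodes that met the mitochondrial limit and both caps but held at most 1 marker UMI. The matching values for 4930578E11Rik were 349 and 403 CPM in members and 19.7 and 17.4 CPM in those marker-negative barcodes. Zfp820 stood at 299.5 and 103 CPM in members and at 7.25 and 6.23 CPM in marker-negative barcodes. Aym1 stood at 81.1 and 71.3 CPM in members and at 9.54 and 7.36 CPM in marker-negative barcodes. The groups were far apart under both suffixes, as the rule sets them to be.

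Free RNA in droplets gives a low share of barcodes with a UMI in any cell type, so somatic cells were used as a background. Gm35256 had a UMI in 85.2% of members (median depth 6266 UMIs), against 8.22% of 73 Leydig-gated barcodes, 4.04% of 99 macrophage-gated barcodes and 8.05% of 87 T or NK-gated barcodes. Aym1 had a UMI in 37.3% of members, against 2.74%, 3.03% and 1.15% of those same somatic groups. The median depths of these groups were 6344, 6026 and 4969 UMIs. The shares of members lay above the somatic background for both genes, although the rule itself selects for them.

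Each marker was also examined with the rule built from the other 3, so that the gene shown was not used. With the other 3 markers at 2 or more UMIs, Gm35256 had a UMI in 78.0% and 85.3% of barcodes, against 11% and 7.95% of barcodes with the other 3 at 0. For 4930578E11Rik the share was 73.6% and 80.6% with the other 3 markers present, against 13.5% and 10.3% without them. Aym1 had a UMI in 35.2% and 32.7% of barcodes with the other 3 markers present, against 7.17% and 4.95% without them. Zfp820 was found in 27.8% and 23.5% of barcodes with the other 3 markers present, against 6.82% and 4.14% without them. The 4 genes were therefore detected in the same mitochondria-rich barcodes more often than in barcodes lacking the others, under both suffixes. Depth differed between these sets, with pooled medians of 6412 and 4475.5 UMIs for the sets of Gm35256, and its part in the shares was not tested.

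The pairs did not move alike. Across the 761 members the counts of Gm35256 and 4930578E11Rik had a Pearson correlation of 0.44 on the log(1 + UMI) scale, whereas Zfp820 was inversely related to both (-0.30 with Gm35256 and -0.24 with 4930578E11Rik). Aym1 had correlations of 0.01 with Gm35256, 0.08 with 4930578E11Rik and -0.03 with Zfp820. These are descriptions across barcodes that share 2 libraries, differ in depth and passed a limit on the sum of the same genes.

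The members' mitochondrial share had a median of 12.6% and 12.3% and ranged from 5.03% to 19.98%. Among barcodes within both caps and with a marker sum of at least 2, the share had a low and a high part, with barcodes in every bin between them. Of these 1592 barcodes, 498 held under 1% mitochondrial UMIs, 73 held 6 to 8%, 145 held 12 to 14% and 50 held 18 to 20%, the first of these bins being narrower than the others. Barcodes with a marker sum of 0 or 1 showed no second rise near 12 to 14%, where 98 of 23487 lay. Of these barcodes 16818 (71.6%) lay under 1% and 16 at 18 to 20%. Their counts were nearly level between, with 1011 at 2 to 3%, 971 at 3 to 4% and 994 at 4 to 5%, and fell above that. The highest shares in the table were 19.98% and 19.97%, so that any barcodes above it are not analysed here. Of the 946 barcodes in the table with at least 10% mitochondrial UMIs, 527 were members.

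**Figure D2:**
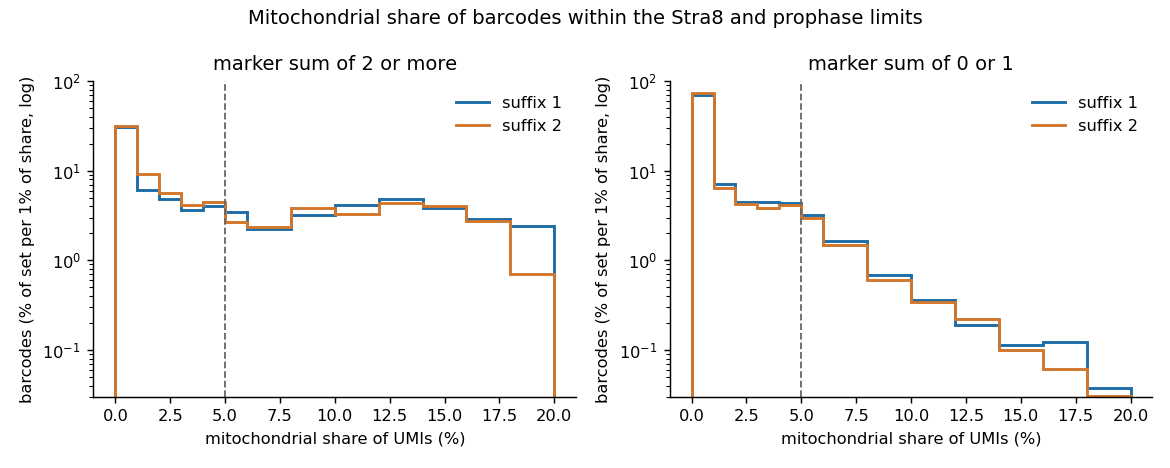
Mitochondrial share of UMIs (horizontal axis, %) for barcodes within the Stra8 and prophase caps, with a marker sum of 2 or more (left) and of 0 or 1 (right). Lines give the percentage of the set per 1% of share (log scale) for each suffix, and the dashed line is the 5% limit of the rule. The marker-positive barcodes have a second rise centred near the 12 to 14% bin, where 145 barcodes lie. The marker-negative barcodes are nearly level from 2 to 5% and then decline to the right end.

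Barcodes lay next to both the mitochondrial limit and the marker limit, and the counts at the limits are not compared because the slices differ in kind. Between 4.5 and 5% mitochondrial UMIs lay 39 barcodes that met every other condition, and between 5 and 5.5% lay 20 members. A marker sum of 1 kept out 479 barcodes, with a median mitochondrial share of 6.87%, and a sum of 2 let in 122, with a median of 8.66%. The cap on the prophase genes left out 52 barcodes and kept 39 that had the highest permitted sum of 4, while 229 members had none of these UMIs. The Stra8 cap left out 0 barcodes, and 6 members had 1 or 2 Stra8 UMIs.

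All 13 mitochondrial protein-coding genes in the table were found in the members, and 3 of them gave most of the mitochondrial UMIs. The cytochrome c oxidase subunits mt-Co3 and mt-Co2 held 24.8% and 23.7% of the mitochondrial UMIs of members, against 23.2% and 20.6% in prophase-gated barcodes. The ATP synthase subunit mt-Atp6 held 19.0% in members and 18.6% in prophase-gated barcodes. The complex I subunit mt-Nd4 held 3.07% in members and 4.42% in prophase-gated barcodes, and mt-Cytb held 5.01% in members and 6.96% in prophase-gated barcodes. The order of the leading genes was the same, and no single mitochondrial gene made up the high share.

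Over the whole table, the suffixes held 158740437 and 168967776 UMIs, with medians of 6061 and 5509 UMIs per barcode, and no barcode had fewer than 3529 UMIs. Barcode sequences shared between the suffixes numbered 73, and 7 members carried such a sequence, none of them a member under both suffixes. A doublet caller made 0 calls under suffix 1, where it had therefore not worked, and 332 (2.17%) under suffix 2. It called 9 members, and all barcodes were kept, so that doublets remain. The members had medians of 6301 and 6195.5 UMIs and of 2730 and 2686 detected genes, and prophase-gated barcodes had 5696 and 5662 detected genes. After each barcode was thinned to 3000 UMIs, the median was 1658 genes in members, 1664 in marker-negative mitochondria-rich barcodes, 1708 in marker-positive barcodes of low mitochondrial share and 1726 in prophase-gated barcodes. At matched depth the medians of the 4 groups thus lay close to each other.

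When all barcodes were clustered on 2000 variable genes, 582 of the 761 members (76.5%) fell into 1 of 25 clusters. The genes leading that cluster were Gm35256, Magi2, 4930578E11Rik, 4930581F22Rik, Zfp820, Gm3448 and Elfn2, which is a description, since the clustering used these counts. The cluster held 889 barcodes, and 65.5% of them were members. Of its 307 other barcodes, 258 had under 5% mitochondrial UMIs, 36 had a marker sum under 2 and 33 had a prophase sum of 5 or more, with some failing more than 1 condition. A further 126 members (16.6%) fell into a cluster led by mt-Co2 and other mitochondrial genes, and 24 and 17 fell into clusters led by the spermatid gene Tnp2 and by Ttn. The members were thus mostly together, with a smaller part spread over clusters without marker genes among their leading genes.

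The first comparison held the mitochondrial limit and the caps fixed and changed the marker limit, setting the 761 members beside 2120 marker-negative mitochondria-rich barcodes (997 and 1123). The mitochondrial share itself was not matched, with pooled medians of 12.5% in members and 6.74% in marker-negative barcodes. Cluster make-up differed too, since the clusters led by Ttn and mt-Co2 held 888 and 881 marker-negative barcodes, against 17 and 126 members. Besides the markers, Magi2, 4930581F22Rik and Elfn2 were far higher in the members. Magi2, a membrane scaffold of the MAGUK family, stood at 349 and 380.1 CPM in members and at 31.5 and 29.1 CPM in marker-negative barcodes. Its ratio was 11.1 (95% interval 9.39 to 13.2) under suffix 1 and 13.1 (11 to 15.6) under suffix 2. The noncoding transcript 4930581F22Rik stood at 447 and 599.6 CPM in members and at 37.8 and 48.7 CPM in marker-negative barcodes, a ratio of 11.8 (10.2 to 13.8) under suffix 1 and 12.3 (10.8 to 14.1) under suffix 2. Elfn2, a membrane protein with leucine-rich repeats, stood at 587 and 584 CPM in members and at 81.1 and 72.3 CPM in marker-negative barcodes, a pooled ratio of 7.64 (7.07 to 8.27). The members lay above under both suffixes for each of these genes.

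A gene was called when its CPM ratio was 1.5 or more, or the inverse of that, under suffix 1 and likewise under suffix 2, and when its higher group reached 50 CPM and 50 UMIs each time. Genes with 20 or more UMIs in both groups together were taken as measured. Against the marker-negative barcodes, 414 of 15041 measured genes (2.75%) were called higher in members and 196 (1.3%) lower. Long intergenic noncoding RNAs made up 7.25% of the genes called higher and 7.92% of those measured. Of all calls 67.9% were higher, a share that became 79.7% with TMM scaling and 80.7% with median-of-ratios scaling. The median log2 ratio of all measured genes was -0.16, and median-of-ratios scaling shifted it by 0.10.

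The 10 called genes furthest above the marker-negative barcodes were 4930581F22Rik, Magi2, AI838599, 4933411E06Rik, AC149090.1, Gm3448, Tmem30c, Flrt3, Elfn2 and D130017N08Rik. Tmem30c, of the CDC50 family of flippase partners, stood at 236 and 295 CPM in members and at 26.9 and 27.4 CPM in marker-negative barcodes. Gm3448 stood at 269 and 324 CPM in members and at 30.1 and 29.4 CPM in marker-negative barcodes. Flrt3, a membrane adhesion protein with leucine-rich repeats, stood at 59.6 and 58.6 CPM in members and at 7.44 and 7.55 CPM in marker-negative barcodes. AI838599, 4933411E06Rik and D130017N08Rik are annotated as long intergenic noncoding RNAs, and AC149090.1 matched no annotated symbol. Magi2 had a UMI in 70.4% and 78.4% of members, against 13.9% and 10.9% of marker-negative barcodes. For 4930581F22Rik the shares were 68.4% and 83.1% of members and 15.4% and 15.1% of marker-negative barcodes. Flrt3 had a UMI in fewer barcodes, with 28.4% and 30.3% of members and 3.61% and 3.56% of marker-negative barcodes, and AI838599 and 4933411E06Rik likewise reached a minority of members.

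**Figure D3:**
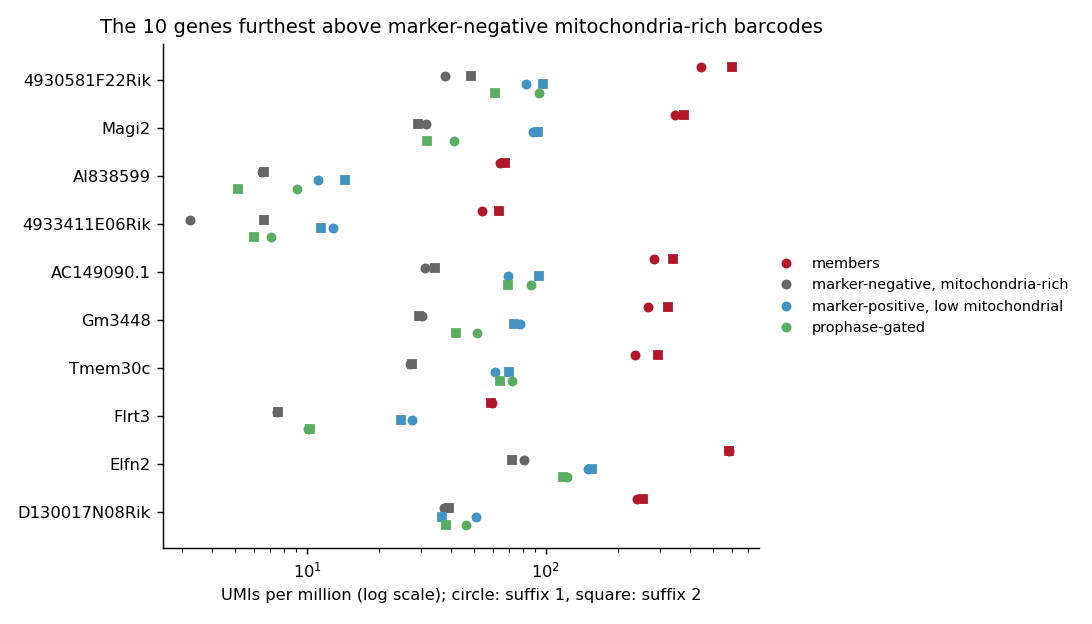
CPM (log scale) of the 10 called genes furthest above marker-negative mitochondria-rich barcodes, in members and in the 3 groups they were set beside, from the top down within each gene. Circles are suffix 1 and squares are suffix 2. Magi2 lies at 349 and 380.1 CPM in members, and for each gene the members' points lie to the right of those of the other groups.

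Several of these genes were also found in other clusters of the table. The 4 markers summed to 1091 CPM in members, 253 CPM in the cluster led by Piwil1, whose protein binds piRNAs of the pachytene stage, and 22.0 CPM in a cluster led by Ncl. A marker UMI was found in 96.1% of the barcodes of the Piwil1-led cluster, whose median depth was 35908 UMIs. Elfn2 stood at 587 and 584 CPM in members, 386 CPM in the Piwil1-led cluster and 20.5 CPM in the Ncl-led cluster. Tmem30c stood at 236 and 295 CPM in members, 188 CPM in the Piwil1-led cluster and 9.55 CPM in the Ncl-led cluster. Magi2 stood at 349 and 380.1 CPM in members, 67.4 CPM in the Piwil1-led cluster and 9.07 CPM in the Ncl-led cluster. These genes were therefore also present outside the members, Elfn2 and Tmem30c nearer to the members' levels in the Piwil1-led cluster than Magi2.

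Genes of meiotic prophase were partly higher in members than in marker-negative barcodes. Of 20 measured genes of the piRNA pathway 5 were called higher and 0 lower, with a median log2 ratio of 0.33. Piwil1 stood at 266 and 264 CPM in members and at 132 and 112 CPM in marker-negative barcodes. The Tudor protein gene Tdrd1 stood at 84.3 and 82.8 CPM in members and at 37.6 and 36.6 CPM in marker-negative barcodes. The other 3 called genes, Tdrd5, Tdrd9 and Tdrd12, also encode Tudor proteins.

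Of 13 genes of ATR signalling and the XY body 3 were called higher and 0 lower, with a median of 0.30. Atr, the kinase that starts silencing of the sex chromosomes, stood at 214 and 235 CPM in members and at 93.9 and 88.3 CPM in marker-negative barcodes. Mdc1, which spreads the damage signal along chromatin, stood at 65.4 and 67.9 CPM in members and at 41.0 and 34.9 CPM in marker-negative barcodes. Rnf8, a ubiquitin ligase of the same pathway, stood at 88.7 and 95.6 CPM in members and at 33.6 and 37.5 CPM in marker-negative barcodes. Among 11 crossover genes 2 were called higher and 0 lower (median 0.22). Mlh3, which resolves crossovers, stood at 85.4 and 92.6 CPM in members and at 27.3 and 30.6 CPM in marker-negative barcodes. These counts for the 3 lists were the same or 1 higher under the other scalings and when every barcode was thinned to 3500 UMIs before the rule was applied.

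Genes of other prophase functions were mostly near the background. Of 14 measured genes of the synaptonemal complex 0 were called, with a median log2 ratio of -0.07, and median-of-ratios scaling, TMM scaling or a total without mitochondrial UMIs each made 1 of them a call in the higher direction, while thinning before gating made 1 a call in the lower direction (Sycp1). Of 14 measured genes of break formation and strand exchange only Brca2 was called, at 64.3 and 68.4 CPM in members and 29.96 and 32.8 CPM in marker-negative barcodes. Rbm46, an RNA-binding protein needed for meiosis, stood at 136 and 169 CPM in members and at 71.9 and 76.0 CPM in marker-negative barcodes. Dazl, an RNA-binding protein of germ cells, was lower, at 30.2 and 16.1 CPM in members and 54.6 and 50.2 CPM in marker-negative barcodes. The call of Dazl was kept after thinning and lost with TMM or median-of-ratios scaling. It was also lost when marker-negative barcodes were limited to at most 1 somatic marker UMI. Of 12 long genes Dnah8, a dynein heavy chain of the sperm tail, was called higher, at 882 and 864 CPM in members and 413 and 384 CPM in marker-negative barcodes, and Ttn lower.

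The nuclear genes of mitochondria did not rise as a group in members. Of 24 nuclear-encoded respiratory chain genes 0 were called higher and 3 lower (Ndufa4, Cycs and Cox6b1), with a median log2 ratio of -0.19. Cycs, the gene of cytochrome c, stood at 11.6 and 15.3 CPM in members and at 58.4 and 78.7 CPM in marker-negative barcodes. Of 23 genes of mitochondrial expression and maintenance 1 was called higher and 1 lower. Polg, the polymerase that copies mitochondrial DNA, was the higher one, at 90.9 and 123 CPM in members and 40.4 and 47.4 CPM in marker-negative barcodes. Of 24 cytosolic ribosomal protein genes 0 were called higher and 2 lower (Rps2 and Rpl10), with a median of -0.40, and 11 were called lower when the barcodes were thinned before gating. Among 15 heat shock and dissociation genes Hspa8 was called lower, and among 14 apoptosis genes 0 were called. Of 12 acrosome genes 0 were called higher and 2 lower, with a median of -0.53. These were Acrv1, at 109 and 87.5 CPM in members and 199 and 188 CPM in marker-negative barcodes, and Spam1, a sperm hyaluronidase, at 32.4 and 28.0 CPM in members and 52.3 and 52.5 CPM in marker-negative barcodes. The 13 sperm chromatin genes had 0 calls.

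The genes furthest below the marker-negative barcodes were mostly somatic ones: Agt, Bhmt, Gstm1, Ptgds, Aldh1a1, Defb19, Gstm2, Aard, Gm10354 and Insl3. Insl3, a hormone of Leydig cells, stood at 4.00 and 8.49 CPM in members and at 192 and 71.9 CPM in marker-negative barcodes. Defb19, a defensin of Sertoli cells, stood at 38.9 and 39.5 CPM in members and at 374 and 446 CPM in marker-negative barcodes. Agt, angiotensinogen, had a pooled ratio of 0.00570 (95% interval 0.00155 to 0.0146).

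Markers of somatic cells moved with these calls. The 10 Sertoli markers summed to 0.662 and 0.722 UMIs per member, against 4.42 and 5.32 per marker-negative barcode, and Sox9 was at 0 in members under suffix 1. The 6 Leydig markers summed to 0.111 and 0.514 UMIs per member, against 3.47 and 1.51 per marker-negative barcode, and Hsd3b1 was at 0 in members under suffix 1. The marker-negative barcodes included 199 from a cluster led by the Sertoli gene Cst9 and 27 from a cluster led by Lcn2 and Ptgds. With marker-negative barcodes limited to those with at most 1 somatic marker UMI, a choice made after seeing the data, the pooled log2 ratio of 8 of the 10 lowest genes turned positive, the exceptions being Agt and Gm10354. That limit was put on the marker-negative barcodes alone and selects against somatic transcripts, so that the turn of somatic genes was set by the selection. In that comparison 368 of 13728 genes (2.68%) were called higher and 196 (1.43%) lower. The piRNA, ATR and crossover lists again had 5, 3 and 2 genes called higher and 0 lower, while 0 respiratory chain and 0 ribosomal protein genes were called lower. Depth also differed, with pooled medians of 6266 UMIs in members and 4479.5 UMIs in marker-negative barcodes, and its part in these calls was not tested beyond the thinning.

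The second comparison held the marker limit and the caps fixed and changed the mitochondrial limit, setting the members beside 831 marker-positive barcodes under 5% (398 and 433). Levels of the markers were not matched, with pooled median marker sums of 6 UMIs in members and 2 in the low-share barcodes. The cluster led by Gm35256 held 239 of the low-share barcodes and 582 of the 761 members, so that cluster make-up differed too. The median mitochondrial share of the low-share barcodes was 0.50% and 0.665%, and their median depth 5599.5 and 5200 UMIs. In members 1700006A11Rik, Adrb1 and Arhgap20 were among the higher genes. Genes of late spermatids were called lower, a result that was lost when the barcodes were thinned before gating. The gene 1700006A11Rik stood at 362 and 349 CPM in members and at 33.2 and 38.3 CPM in marker-positive barcodes of low mitochondrial share, a pooled ratio of 9.90 (95% interval 8.78 to 11.2). Adrb1, the beta-1 adrenergic receptor, stood at 61.8 and 70.1 CPM in members and at 8.91 and 11.6 CPM in the low-share barcodes. Arhgap20 stood at 246 and 248 CPM in members and at 44.1 and 45.5 CPM in the low-share barcodes. The members lay above under both suffixes for all 3 genes.

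Against the low-share barcodes, 573 of 13558 measured genes (4.23%) were called higher in members and 604 (4.45%) lower. Higher calls made up 48.7% of these, against 74.1% with mitochondrial UMIs left out of the total, 38.7% with TMM scaling and 38.0% with median-of-ratios scaling. The median log2 ratio of all genes was 0.06 and moved up by 0.17 with mitochondrial UMIs left out. The other 7 of the 10 genes furthest above were Gm10619, Gm5878, 1700020N18Rik, 1700009C05Rik, Gm21269, 4921525O09Rik and 4932702P03Rik, none of them annotated as protein coding. Over all genes called higher, long intergenic noncoding RNAs made up 5.76%, against 8.56% of those measured. Gm21269 stood at 509 and 471 CPM in members and at 81.2 and 79.9 CPM in the low-share barcodes. The transcript 1700020N18Rik stood at 399 and 510.5 CPM in members and at 60.5 and 70.2 CPM in the low-share barcodes.

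The 13 genes of sperm chromatin and other abundant spermatid transcripts had 8 calls lower in members and 0 higher, with a median log2 ratio of -0.77, which became 0 calls and a median of 0.58 after thinning. Prm1, a protamine that packs sperm DNA, stood at 16417 and 14164 CPM in members and at 32706 and 26349 CPM in the low-share barcodes. Tnp2, a transition protein that precedes protamines, stood at 6800 and 5592 CPM in members and at 14163 and 11933 CPM in the low-share barcodes. Of 12 acrosome genes 7 were called lower and 0 higher (median -0.73), which became 0 calls and a median of 0.29 after thinning. Acrv1, a protein of the acrosomal matrix, stood at 109 and 87.5 CPM in members and at 248 and 200.3 CPM in the low-share barcodes. Across these barcodes the markers of elongating spermatids summed to 44073 and 38879 CPM in members and to 87595 and 71325 CPM in the low-share barcodes.

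Prophase genes were again partly higher in members. Of 20 piRNA pathway genes 6 were called higher and 0 lower (median log2 ratio 0.68), with Piwil1 at 266 and 264 CPM in members and 111 and 153 CPM in the low-share barcodes. Mybl1, the transcription factor of the pachytene piRNA clusters, stood at 57.8 and 61.2 CPM in members and at 31.5 and 39.2 CPM in the low-share barcodes. Of 13 ATR and XY body genes 3 were called higher and 0 lower (median 0.71), and Atr stood at 214 and 235 CPM in members and at 83.8 and 95 CPM in the low-share barcodes. TMM and median-of-ratios scaling each gave 4 higher and 1 lower among the piRNA genes.

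Nuclear noncoding RNA had 3 calls higher and 0 lower among 9 measured genes, with a median log2 ratio of 0.76. Neat1, the scaffold of paraspeckles, stood at 50.2 and 67.1 CPM in members and at 14.7 and 15.3 CPM in the low-share barcodes. Kcnq1ot1, an imprinted antisense transcript, stood at 305 and 195 CPM in members and at 155 and 117 CPM in the low-share barcodes. The sources used here do not say whether the counting used strand, so reads of antisense genes such as Kcnq1ot1, Hectd2os and 4932702P03Rik cannot be told apart from those of genes on the opposite strand.

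Nuclear genes of mitochondria showed no common direction. Of 24 respiratory chain genes 0 were called (median log2 ratio -0.10), and Polg was called higher while Tfam and Mrps12 were called lower. Polg stood at 90.9 and 123 CPM in members and at 41.2 and 48.0 CPM in the low-share barcodes. Tfam, which packages mitochondrial DNA, stood at 256 and 225 CPM in members and at 472 and 371 CPM in the low-share barcodes. Of 24 ribosomal protein genes 0 were called, with a median of -0.29, and 16 were called lower after thinning.

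These list counts depended on how the low-share barcodes were chosen. When every barcode was thinned to 3500 UMIs before the rule was applied, the members were set beside 286 and 315 barcodes with a median mitochondrial share of 1.39%. Then 162 of 13328 genes (1.22%) were called higher and 616 (4.62%) lower, the piRNA list had 0 higher and 8 lower, and the ATR list had 0 higher and 3 lower. Of 24 ribosomal protein genes 16 were lower (median log2 ratio -0.82), as were 6 of 24 respiratory chain genes and 5 of 14 synaptonemal genes, each with 0 higher. The sperm chromatin and acrosome lists had 0 calls and positive medians of 0.58 and 0.29, beside -0.04 over all genes, and nuclear noncoding RNA had 2 higher and 0 lower. Prm1, Prm2, Tnp1 and Tnp2 then held 3.68% of the UMIs of members and 2.50% of those of the low-share barcodes. Within the cluster led by Gm35256 alone, a limit chosen after seeing the data, 142 of 10841 genes (1.31%) were called higher and 248 (2.29%) lower. There the piRNA and ATR lists had 0 calls, nuclear noncoding RNA had 0 higher and 3 lower, sperm chromatin had 0 higher and 5 lower, and Cox8c, Clgn and Pou5f2 were higher in members. Against the low-share barcodes, the calls of the piRNA, ATR, nuclear noncoding RNA, sperm chromatin and acrosome lists thus turned or were lost under at least 1 of these choices, and those of the ribosomal protein, respiratory chain and synaptonemal lists rose in number after thinning.

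The third comparison set the members beside 2948 prophase-gated barcodes (1507 and 1441), which had at least 5 UMIs of the 8 prophase genes, fewer than 3 of Stra8 and any mitochondrial share. Their median mitochondrial share was 1.12% and 0.936% and their median depth was 29019 and 28074 UMIs. In members Magi2, Adrb1 and Kcnk10 were higher, and part of the genes of the synaptonemal complex and most of those of cytosolic ribosomes were called lower. The members were capped on the same 8 prophase genes that the gate requires. The selection itself therefore favours lower levels of other prophase genes, such as those of the synaptonemal complex, in members. Magi2 stood at 349 and 380.1 CPM in members and at 41.1 and 31.8 CPM in prophase-gated barcodes, a pooled ratio of 9.91 (95% interval 9.37 to 10.5). Adrb1 stood at 61.8 and 70.1 CPM in members and at 8.71 and 5.95 CPM in prophase-gated barcodes. Kcnk10, a potassium channel, stood at 81.1 and 51.8 CPM in members and at 9.61 and 7.57 CPM in prophase-gated barcodes.

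Against the prophase-gated barcodes, 420 of 18601 measured genes (2.26%) were called higher in members and 774 (4.16%) lower. Higher calls made up 35.2% of these, against 59.0% with mitochondrial UMIs left out of the total, 46.2% with TMM scaling and 48.0% with median-of-ratios scaling. The median log2 ratio of all genes was -0.13 and moved up by 0.17 with mitochondrial UMIs left out and by 0.11 with median-of-ratios scaling. The other 7 genes furthest above were 4933411E06Rik, 4933431K23Rik, Hectd2os, AI838599, D430040D24Rik, Gm10619 and 1700020N18Rik. Ncl, nucleolin, was the lowest by the rule, at 22.9 and 19.96 CPM in members and 99.9 and 93.2 CPM in prophase-gated barcodes. It was followed by Naa80, Nrm, Gm20268, Amer2, Dek, Smco4, Stambpl1, Itgad and 4921504E06Rik.

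The synaptonemal complex list had 5 genes called lower in members and 0 higher among 15 measured, with a median log2 ratio of -0.69. Sycp1, the transverse filament of the complex, stood at 114 and 85.8 CPM in members and at 295 and 331 CPM in prophase-gated barcodes. Sycp3, of the lateral elements, stood at 152 and 164 CPM in members and at 273 and 276 CPM in prophase-gated barcodes. Smc1b, a meiotic cohesin subunit, stood at 251 and 251 CPM in members and at 401 and 409 CPM in prophase-gated barcodes. Sycp2 and Syce3 completed the called genes. The list stayed lower under every scaling, with 2 or 3 genes called.

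Cytosolic ribosomal protein genes were the list with the most calls. Of 24 measured 16 were lower in members and 0 higher, with a median log2 ratio of -0.70. Rplp0 stood at 829 and 796 CPM in members and at 1493 and 1573 CPM in prophase-gated barcodes. Rps2 stood at 210.1 and 202 CPM in members and at 423 and 433 CPM in prophase-gated barcodes. Under the other scalings 8 or 9 of the 24 were lower and 0 higher.

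Of 24 nuclear-encoded respiratory chain genes 6 were called lower in members and 0 higher, with a median log2 ratio of -0.62. Fewer were called lower under the other scalings: 1 without mitochondrial UMIs in the total, 2 with TMM and 1 with median-of-ratios scaling. Over all 18601 genes these scalings called 413, 560 and 236 lower. The list medians were then -0.45, -0.55 and -0.51. Whether so few calls exceed the share over all genes was not tested. Uqcrc1, a complex III subunit, stood at 144 and 141 CPM in members and at 278 and 294 CPM in prophase-gated barcodes. Tfam was higher, at 256 and 225 CPM in members and 78.8 and 82.7 CPM in prophase-gated barcodes. Polg was higher too, at 90.9 and 123 CPM in members and 46.7 and 42.6 CPM in prophase-gated barcodes. Mrps12, of the mitochondrial ribosome, and Dnm1l, which divides mitochondria, were lower.

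Nuclear noncoding RNA was higher in members, with 5 of 12 measured genes called higher, 0 lower and a median log2 ratio of 1.54. Malat1, a transcript of nuclear speckles, stood at 1568 and 1837 CPM in members and at 836 and 834 CPM in prophase-gated barcodes. Neat1 stood at 50.2 and 67.1 CPM in members and at 15.6 and 13.3 CPM in prophase-gated barcodes. Kcnq1ot1 stood at 305 and 195 CPM in members and at 74.0 and 76.7 CPM in prophase-gated barcodes. The other 2 called genes were Gm42418 and AY036118, which are known to overlap ribosomal RNA sequence. Over the whole list the summed level was 3836 CPM in members, 4476 CPM in marker-negative mitochondria-rich barcodes, 2606 CPM in low-share barcodes and 1539 CPM in prophase-gated barcodes. It was thus not highest in the members but in the marker-negative mitochondria-rich barcodes. Gene by gene against those barcodes, 0 of 10 measured genes were called higher in members and 1 lower, with a median log2 ratio of 0.07. With those barcodes limited to at most 1 somatic marker UMI, 2 of 8 were called higher (Malat1 and Neat1) and 0 lower, with a median of 0.87. After thinning before gating, 1 of 11 was called higher and 1 lower.

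Spermatid transcripts went in both directions. Of 13 sperm chromatin genes 8 were higher in members and 0 lower, with Prm1 at 16417 and 14164 CPM in members and 4841 and 5189 CPM in prophase-gated barcodes. Of 12 acrosome genes 0 were higher and 8 lower, with Acrv1 at 109 and 87.5 CPM in members and 248 and 267 CPM in prophase-gated barcodes. Prm1, Prm2, Tnp1 and Tnp2 together held 3.93% of all UMIs of members, 4.8% of those of marker-negative mitochondria-rich barcodes, 7.53% of those of low-share barcodes and 1.28% of those of prophase-gated barcodes. Per barcode their median was 210 UMIs in members and 213, 247 and 261 UMIs in these other groups, in the same order. The members were thus not higher per barcode, and pooled median depth was 6266 UMIs in members and 28500 UMIs in prophase-gated barcodes. These 4 genes and Ldhc, a lactate dehydrogenase of germ cells, had the most UMIs in members after the mitochondrial genes, and Ldhc stood at 6482 and 6614 CPM. The part of free RNA in these levels was not tested.

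The prophase gate held more than 1 kind of barcode. Of its 2948 barcodes, 727 and 568 sat in the clusters led by 4921504E06Rik and Gm20268, which are themselves among the genes lowest in members. With the gate limited to the clusters led by Ncl, Piwil1 and Pabpc6 (725 and 643 barcodes), a choice made after seeing the data, 697 of 16752 genes (4.16%) were called higher in members and 1110 (6.63%) lower. The synaptonemal list then had 8 genes lower, ribosomal proteins 18 and the respiratory chain 15, each with 0 higher, and nuclear noncoding RNA had 4 higher and 0 lower. The piRNA and ATR lists had 9 and 5 genes lower and 0 higher. Against the whole prophase gate, the piRNA list had 1 higher and 3 lower of 20, and the ATR list 2 higher and 1 lower of 13. The acrosome list turned to 5 higher and 0 lower, and the pooled log2 ratios of Naa80, Nrm, Gm20268, Amer2, Smco4, Stambpl1, Itgad and 4921504E06Rik turned positive.

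Thinning to 3500 UMIs before gating left 158 and 129 prophase-gated barcodes, with a median mitochondrial share of 4.38%. In that comparison 824 of 13098 genes (6.29%) were called higher in members and 1557 (11.9%) lower. The synaptonemal list had 10 genes lower, ribosomal proteins 21 and the respiratory chain 12, each with 0 higher. Acrosome genes had 2 higher and 0 lower, and nuclear noncoding RNA had 1 higher and 2 lower. The piRNA list had 1 higher and 2 lower, with a median log2 ratio of 0.08 beside -0.21 over all genes. The ATR list had 0 higher and 6 lower. The calls for synaptonemal and ribosomal genes were in the lower direction with both other choices of prophase-gated barcodes and with the 3 other scalings. Both choices kept the prophase gate, so that they are no independent check of the synaptonemal genes. Respiratory chain genes were lower with both choices, but the other scalings called only 1 or 2 of 24. Acrosome genes turned with both choices, and nuclear noncoding RNA was mixed after thinning.

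**Figure D4:**
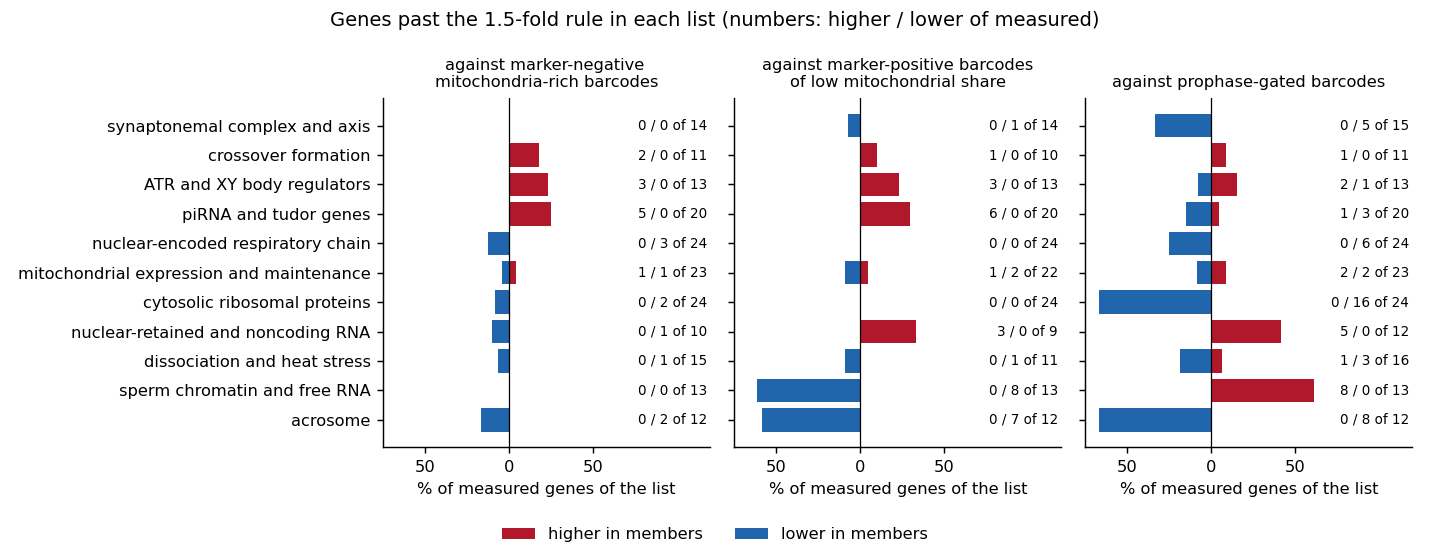
Share of the measured genes of 11 lists that passed the 1.5-fold rule under both suffixes (horizontal axis, %), higher in members (red, right) or lower in members (blue, left), against each of the 3 groups. Numbers give the genes higher, lower and measured. The piRNA list has 5 of 20 higher against marker-negative mitochondria-rich barcodes, and ribosomal proteins have 16 of 24 lower against prophase-gated barcodes, but the acrosome bar of the right panel turns with the prophase-gated barcodes used.

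X-linked genes held a smaller share of UMIs in members than in the other mitochondria-rich barcodes. They held 0.749% (95% interval 0.738 to 0.759%) and 0.639% (0.628 to 0.650%) of the non-mitochondrial UMIs of members, against 1.16% and 1.12% in marker-negative mitochondria-rich barcodes. The low-share barcodes had 1.15% and 0.911%, and prophase-gated barcodes had 0.711% and 0.728%. The last group mixed low and high shares, since the clusters led by Piwil1 and Pabpc6 had pooled shares of 0.190% and 0.176%, while the Ncl-led cluster had 1.65%. The members lay between these, and their per-barcode shares had a median of 0.686% and quartiles of 0.536% and 0.888%. Leaving out the 5 most abundant X-linked genes of the table gave members a pooled share of 0.522%. The same step gave 0.920% in marker-negative barcodes, 0.764% in low-share barcodes and 0.574% in prophase-gated barcodes.

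The X-linked share of members also varied with their cluster. The 582 members of the Gm35256-led cluster had 0.633%, the 126 members in the mt-Co2-led cluster had 0.820%, and the remaining 53 had 1.04%. Of 452 X-linked genes measured against marker-negative barcodes 0 were called higher and 5 lower, where 2.75% of all genes were called higher and 1.3% lower. Against the low-share barcodes 0 of 318 were called higher and 21 lower, where 4.23% of all genes were higher and 4.45% lower. Against prophase-gated barcodes 7 of 621 were higher and 3 lower, where 2.26% of all genes were higher and 4.16% lower. Counts of lower calls against the marker-negative barcodes and of higher calls against the prophase-gated barcodes were thus no larger than over all genes. Long intergenic noncoding RNAs held 3.51% and 3.55% of the non-mitochondrial UMIs of members, against 3.05% and 3.01% in marker-negative barcodes, 2.89% and 2.73% in low-share barcodes and 2.51% and 2.47% in prophase-gated barcodes. These shares include the markers Gm35256 and 4930578E11Rik, which the rule selects for. Part of the difference from the marker-negative barcodes is therefore set by the rule.

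Zfp820 was concentrated in few members. It had 0 UMIs in 526 of the 761 members, and 33 members with at least 10 UMIs held 65.8% of all its UMIs. The 51 members with at least 5 UMIs of Zfp820, a limit chosen after its values were seen, numbered 43 under suffix 1 and 8 under suffix 2. Their median depth was 5494 UMIs and their median mitochondrial share 11.4%, against 6361 UMIs and 12.6% in the other 710 members. Of all barcodes, 123 had at least 5 UMIs of Zfp820.

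These 51 members carried little of the other markers. Gm35256 and 4930578E11Rik summed to at least 2 UMIs in 18 of them (35.3%), against 649 of the other 710 members (91.4%), and to 0 in 22 of them, against 24 of the others. Gm35256 stood at 105 CPM in the 51 members and at 452 CPM in the others. Other genes that led the members were low as well. The transcript 4930581F22Rik stood at 45.8 CPM in the 51 members and at 548 CPM in the others, and Arhgap20 at 36.0 CPM in the 51 members and 260.4 CPM in the others. The rule admits a barcode through any 1 marker, and Zfp820 alone was enough to admit these, whereas members without Zfp820 had to carry the other markers. The lower level of Gm35256 and 4930578E11Rik in the 51 members is therefore partly set by the rule.

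**Figure D5:**
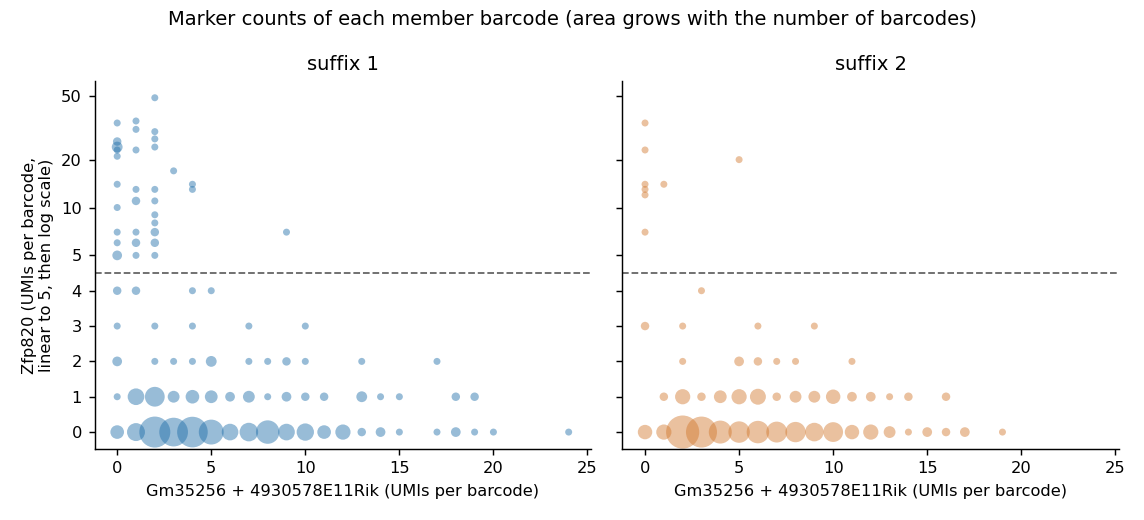
UMIs of Zfp820 (vertical axis, linear to 5 and then log) against the sum of Gm35256 and 4930578E11Rik (horizontal axis) in each member, for suffix 1 (left) and suffix 2 (right). Area grows with the number of barcodes, and the dashed line separates the 51 members with at least 5 Zfp820 UMIs, which have a median sum of 1, from the other 710, which have a median sum of 5.

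Other genes were higher in the 51 members, chosen here after their values were seen. Gm49794 stood at 514 CPM in the 51 members and at 48.3 CPM in the others. Gm10505 stood at 1019 CPM in the 51 members and at 224 CPM in the others, and both genes lie on chromosome 17 like Zfp820. Sycp1 stood at 324 CPM in the 51 members and at 86.9 CPM in the others. Mov10l1, a helicase of the piRNA pathway, stood at 138 CPM in the 51 members and at 33.1 CPM in the others. Dazl stood at 85.1 CPM in the 51 members and 19.8 CPM in the others, and Ncl at 81.9 CPM in the 51 members and 17.7 CPM in the others. The X-linked share was 0.959% in the 51 members and 0.682% in the others. These are descriptions of a set with 8 barcodes under suffix 2.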

How the data were processed

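Total testicular cells were measured by droplet RNA sequencing, with 1 library each from miR-202-/- and WT mice. The deposited table holds raw UMI counts per gene and barcode, which the authors had not normalised, as the values show (20476 genes, 28245 barcodes, whole numbers). Per the submitters' processing notes, Cell Ranger 1.3.1, Seurat 3.2.2 and the build GRCm38 were used. The filter on barcodes and the annotation are not given in the sources used here. Depth per barcode limits what counts of a few UMIs can show, and barcodes above 19.98% mitochondrial UMIs, the highest share in the table, are not analysed here.

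The members and the 20 gene lists were chosen with earlier results of these data known. Raw UMIs set the groups. UMIs were summed per group and suffix and divided by the group total (CPM). Calls needed 1.5-fold under both suffixes, 50 CPM and 50 UMIs. A sum of 0 was set at a floor of 3 counts in ratios. Shares have Clopper-Pearson, levels Poisson and ratios conditional binomial intervals at 95%. Named genes are the rule genes, the 10 called genes furthest from a ratio of 1 in each direction by the suffix nearer to 1, called list members, and the 5 genes with the most UMIs. Genes named for the members rich in Zfp820 and for clusters were chosen after their values were seen.

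Clustering used counts scaled to 10000 per barcode, log values, 2000 variable genes, 30 principal components, 15 neighbours and Leiden resolution 1. Scrublet was run with an expected share of 10%, and a share of calls under 0.5% was taken as failure. Leydig-gated barcodes had at least 10 UMIs of 4 markers, and macrophage- and T or NK-gated barcodes at least 5. Symbols were matched to GENCODE M21. Other scalings were TMM factors from edgeR 4.0.16 and median-of-ratios factors from DESeq2 1.42.0, used for scaling factors only. Python packages were scanpy 1.11.5, scipy 1.17.1 and numpy 2.4.6. The rule for calls was also run on simulated Poisson sums with known changes. Both suffixes shared a profile there, so that the simulation cannot show errors from differences between barcodes or libraries.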

Additional observations from a re-analysis of the deposited data

How the results depend on the processing

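The share of members, 2.69% of barcodes, became 3.15%, 2.26% and 1.87% with mitochondrial limits of 3%, 8% and 10%, and 4.39% and 2.26% with marker sums of at least 1 and 3. It became 2.14%, 2.30% and 2.51% without Gm35256, 4930578E11Rik and Zfp820, and 2.33% after thinning. Genes called against marker-negative barcodes (414 higher, 196 lower) became 799 and 563 at 20 CPM, 1655 and 2806 with no filter on level, 189 and 65 at 2-fold, and 120 lower with median-of-ratios factors. Against low-share barcodes (573 and 604) they became 1220 and 922 at 20 CPM, 2700 and 1935 with no filter, 265 and 61 at 2-fold, 294 lower without mitochondrial UMIs in the total, 380 lower with a marker sum of at least 3, 162 higher after thinning, and 142 and 248 within the Gm35256-led cluster. Against prophase-gated barcodes (420 and 774) they became 855 and 1265 at 20 CPM, 2867 and 3038 with no filter, 231 and 169 at 2-fold, 413 lower without mitochondrial UMIs in the total, 218 and 236 with median-of-ratios factors, 824 and 1557 after thinning, and 697 higher with the clusters led by Ncl, Piwil1 and Pabpc6. The X-linked share was 0.522% without its 5 top genes, and the members' median of detected genes was 2705 without thinning.

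Log2 ratios that turned positive against marker-negative barcodes with at most 1 somatic marker UMI were those of Bhmt (1.49), Gstm1 (1.64), Ptgds (1.47), Aldh1a1 (0.76), Defb19 (1.67), Gstm2 (2.13), Aard (1.57) and Insl3 (3.58). Those that turned against low-share barcodes after thinning were Nt5c1b (0.20), Nrm (0.053), Gm20268 (0.21), Spata32 (0.42), Fam205c (0.26), Ccnd3 (0.11), 1700007K13Rik (0.18) and Acrv1 (0.19). Against prophase-gated barcodes Gm20268 (0.17) and 4921504E06Rik (0.048) turned after thinning. With the 3 clusters, Naa80 (0.86), Nrm (0.95), Gm20268 (1.33), Amer2 (0.92), Smco4 (0.96), Stambpl1 (1.16), Itgad (1.15) and 4921504E06Rik (1.08) turned. The causes were not tested. Over the named genes, the settings other than the 3 narrower groups kept the direction and the call in 558 cases, lost the call in 32 and turned in 10, and the 3 narrower groups, chosen after seeing the data, did so in 34, 10 and 16. No paired analysis was possible because there was 1 library per genotype and no test. Calls rest on summed UMIs of 2 libraries, so that differences between animals cannot be seen, and genes under 50 CPM were not called.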

Other observations

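Lists outside the functions described above had at most 2 calls each against the marker-negative mitochondria-rich barcodes. Of 13 measured mitosis genes 2 were called higher in members and 0 lower (2.75% of all genes were called higher), with a median log2 ratio of 0.06. Top2a, the topoisomerase of chromosome condensation, stood at 153 and 133 CPM in members and at 97.1 and 84.2 CPM in marker-negative barcodes. Cdca8, of the chromosomal passenger complex, stood at 146 and 166 CPM in members and at 94.8 and 102 CPM in marker-negative barcodes. Of 15 DNA replication genes 1 was called higher and 0 lower, and the median was -0.49. This was Gins2, of the replicative helicase, at 52.3 and 61.6 CPM in members and 23.1 and 23.6 CPM in marker-negative barcodes. Among 10 genes of telomeres and the nuclear envelope Terf1, a telomere-binding protein, was called higher, at 77.1 and 75.2 CPM in members and 46.2 and 49.6 CPM in marker-negative barcodes. Among 17 pachytene genes Pou5f2, a germ cell transcription factor, was called higher, at 80.7 and 106 CPM in members and 42.5 and 49.8 CPM in marker-negative barcodes. The 6 measured zinc finger neighbours of Zfp820 had 0 calls.

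Markers of pachytene spermatocytes, as a summed level, stood at 10335 and 10504 CPM in members, 10484 and 10561 CPM in marker-negative barcodes and 13959 and 13782 CPM in prophase-gated barcodes. Markers of leptotene to zygotene spermatocytes stood at 1076 and 1024 CPM in members, 1016 and 918 CPM in marker-negative barcodes and 1777 and 1858 CPM in prophase-gated barcodes, and this list contains the capped genes. Markers of round spermatids stood at 985 and 860 CPM in members and 1437 and 1412 CPM in marker-negative barcodes. No germ cell marker list was thus highest in members among these groups, other than the 4 markers of the rule.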
